A study of Homo sapiens with 4 samples.

Results

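Parts of the genome with few methylated regions were examined in C42B cells, a human prostate cancer line, by methylated DNA immunoprecipitation and sequencing. In this assay sonicated genomic DNA is pulled down with an antibody against 5-methylcytosine, and a peak is a place where the recovered fragments pile up. The autosomes were divided into windows of 1 Mb by the position of each peak's summit. A window was called poor when it held 5 to 20 peaks of the control list, and windows with 60 to 100 control peaks served as the comparison. By this rule 427 of 2697 autosomal windows with a control peak were poor and 433 were comparison windows. The poor windows held 6909 of the 290447 autosomal knockout peaks and 5020 of the 256848 autosomal control peaks. The control peak number chose the windows, so the low number of peaks is the rule and not a result, and every value that follows is a description without a test.

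The knockout group was PKCl/i KO (sgPKCl/i), cells with a guide RNA against the atypical protein kinase C λ/ι, an enzyme that controls cell polarity and metabolism. The reference was sgC (WT), the same line with a control guide. Both were untreated and were harvested 48 h after plating at about 70% confluency. Whether either line was a single clone or a pool of edited cells was not stated in the sources used here. Each genotype had 1 immunoprecipitated library and 1 input library, and 1 peak list was deposited per genotype. No difference below has a replicate check, and no difference between genotypes can be told apart from a difference between the 2 immunoprecipitates. Intervals cover counting error only and treat peaks of 1 library as independent.

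In mammalian cells most cytosine methylation sits at CpG dinucleotides, and DNA methyltransferases copy it to the new strand after replication. Cancer genomes commonly lose methylation over long, gene-poor, late-replicating stretches known as partially methylated domains, while short methylated regions inside them can remain. The antibody needs several methylated CpGs close together, so a stretch that is poor in CpGs gives few peaks even when its CpGs are methylated. A megabase with few peaks may therefore hold little methylation, few CpGs, or sequence to which reads cannot be assigned, and the lists alone cannot tell these apart.

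The 2 libraries differed in depth. The floor, the lowest local background of a list, which MACS2 sets from the library's genome-wide mean, was 4.42 overlapping fragments in the knockout and 2.92 in the control, a ratio of 1.51. The weakest listed peak had a pileup of 14 in the knockout and 10 in the control. Pileups are given relative to the floor where genotypes are set side by side. Positions are in hg19, and no annotation of that build was used, so no genes are named.

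Poor windows were found on every autosome, in very different proportions. They made up 26.3% of the windows on chromosome 21, 25.4% on chromosome 4 and 22.9% on chromosome 13. On chromosome 7 the share was 20.4% and on chromosome 2 it was 20.2%. Chromosomes 22, 16 and 17 had the lowest shares, at 2.78%, 3.70% and 3.80%. In absolute number chromosome 2 led with 48 poor windows, followed by chromosome 4 with 47 and chromosome 3 with 35. Most poor windows stood alone or in short groups. They formed 314 stretches of adjacent windows, of which 238 were single windows, and 44.3% of poor windows had at least 1 poor neighbour. Of the 427, 22 lay beside a window without any peak in either list.

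Peaks in poor windows were thinly spread. The median gap from a peak to its nearest neighbour of the same list was 6.95 kb for knockout peaks in poor windows (quartiles 1.64 and 22.1 kb), against 1.75 kb in comparison windows. For control peaks it was 9.28 kb in poor windows (quartiles 2.04 and 32.2 kb), against 2.04 kb in comparison windows. The thin spread was not even. In poor windows 27.9% of knockout peaks (26.8 to 28.9) and 24.9% of control peaks (23.7 to 26.1) had a neighbour within 2 kb. Peaks covered 7.48 kb per poor window in the knockout and 5.29 kb in the control, against 48.7 kb and 39.8 kb per comparison window.

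More peaks were listed per poor window in the knockout than in the control. The median poor window held 15 knockout peaks (range 0 to 46) and 11 control peaks (range 5 to 20, set by the rule). Knockout peaks were the more numerous in 340 windows (79.6%), control peaks in 66 (15.5%), and the numbers were equal in 21. In comparison windows knockout peaks were the more numerous still more often, in 400 of 433 (92.4%), and control peaks in 31 (7.16%). In 53 poor windows, 12.4%, the knockout list held at least 2 times as many peaks, and this was seen in 0 of 433 comparison windows. These 2 counts are not a like comparison. The control number chose the windows and also divides the ratio, and ratios of small numbers scatter more. The quartiles of the ratio per window were 1.08 and 1.66 in poor windows, and 1.09 and 1.27 in comparison windows. Summed over poor windows the ratio of knockout to control peaks was 1.38 (1.33 to 1.43), against 1.18 (1.16 to 1.20) in comparison windows and 1.13 on all autosomes. The ratio depended on which list chose the windows. With windows chosen by 5 to 20 knockout peaks it was 1.23 (1.18 to 1.29), against 1.20 (1.18 to 1.21) in windows with 60 to 100.

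**Figure D1:**
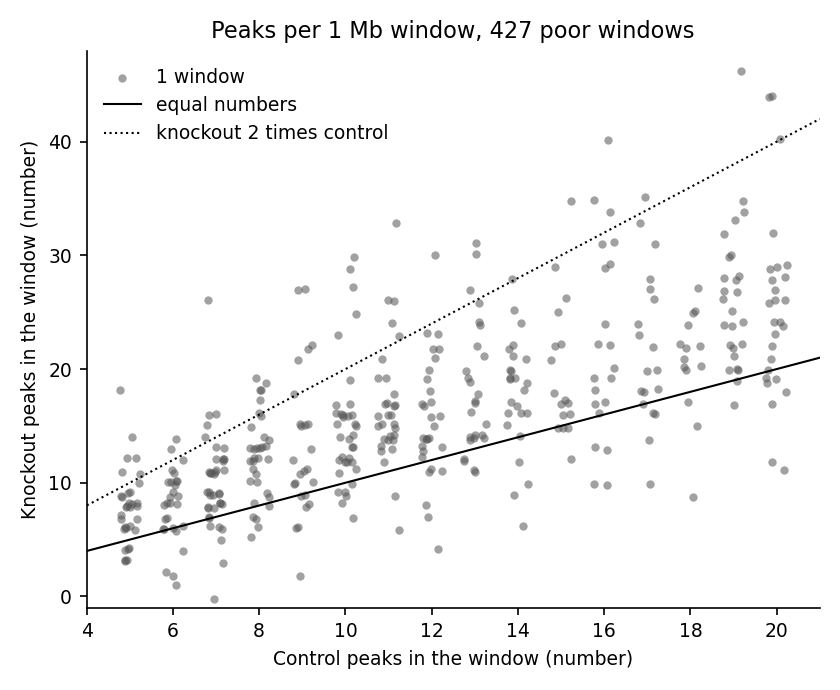
Number of knockout peaks (vertical axis) against control peaks (horizontal axis) in each of the 427 poor 1 Mb windows, 1 point per window, moved by up to 0.25 in each direction so that points do not hide each other. The solid line marks equal numbers and the dotted line 2 times as many in the knockout. Of the points, 340 have more knockout peaks, 66 have fewer, and 53 have at least 2 times as many.

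Poor windows shared fewer of their peaks between the genotypes than comparison windows did. A peak was called list-only when it overlapped no peak of the other list by even 1 bp. Of the knockout peaks in poor windows 2880 (41.7%, 40.5 to 42.9) were knockout-only, against 28.2% (27.8 to 28.6) in comparison windows. Over all autosomal knockout peaks the share was 23.7%. Of the control peaks in poor windows 960 (19.1%, 18.0 to 20.2) were control-only, against 14.2% (13.9 to 14.6) in comparison windows. Over all autosomal control peaks the share was 12.0%. Poor windows thus exceeded comparison windows by 13.5 percentage points (12.2 to 14.7) in the knockout list and by 4.88 (3.74 to 6.03) in the control list.

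The same order held among strong peaks, defined by a −log10 q of at least 10. In poor windows 1413 of 4667 strong knockout peaks were knockout-only (30.3%, 29.0 to 31.6), against 18.5% in comparison windows and 14.7% on all autosomes. There 196 of 2394 strong control peaks were control-only (8.19%, 7.12 to 9.36), against 4.48% in comparison windows and 3.21% on all autosomes. Strong peaks were also a smaller part of the lists in poor windows, at 67.5% of knockout peaks against 73.0% in comparison windows. In the control list they made up 47.7% of peaks in poor windows, against 54.2% in comparison windows.

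List-only shares followed peak density across the whole range of windows. The knockout-only share was 58.1% (54.9 to 61.2) in windows with 1 to 4 control peaks, 41.7% with 5 to 20 and 31.7% with 21 to 59. It was 28.2% in windows with 60 to 100 and 20.8% in those with over 100. The control-only share over the same classes was 24.7% (21.1 to 28.6), 19.1%, 15.2%, 14.2% and 10.9%. Poor windows were thus a stretch of a gradient rather than a class apart. Control peak number ordered these classes and also enters the list-only shares, so the gradient is not independent of the ordering. No other ordering of the whole range is given here. At the borders of the rule, windows with exactly 4 control peaks had a knockout-only share of 49.8% and those with 5 had 52.8%, while those with 20 had 37.2% and those with 21 had 35.4%.

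**Figure D2:**
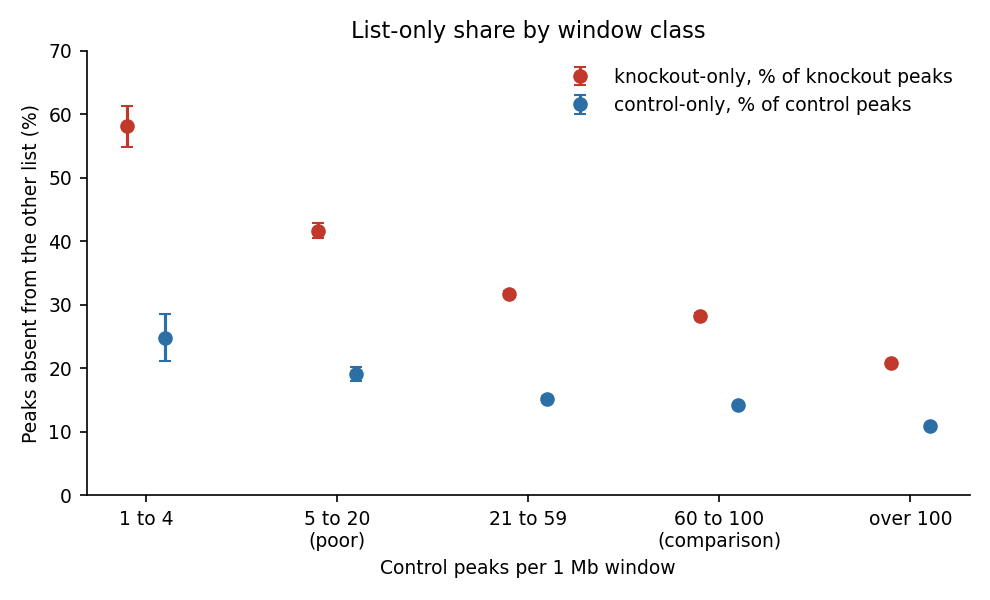
Share of peaks absent from the other list, in percent of the list (vertical axis), by the number of control peaks per 1 Mb window (horizontal axis), for knockout peaks (red) and control peaks (blue). Bars are exact binomial 95% intervals. Both shares are highest in the sparsest windows, and the knockout-only share runs between 58.1% and 20.8%.

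The gradient was visible inside the poor windows as well, where the same ordering by control peak number sets the same limit. In windows with 5 to 8 control peaks 48.3% of knockout peaks were knockout-only (45.5 to 51.1). With 9 to 12 the share was 43.9%, with 13 to 16 it was 40.2%, and with 17 to 20 it was 37.0% (34.9 to 39.1). Control-only shares showed no such steady order, at 23.3%, 17.7%, 19.1% and 18.0%. The list-only share also differed with the distance to the next peak, in both lists. Knockout peaks of poor windows with a neighbour of their own list under 2 kb away were knockout-only in 37.1% of cases (35.0 to 39.3), against 26.1% (25.5 to 26.6) in comparison windows. Those over 20 kb from any neighbour were knockout-only in 45.5% (43.2 to 47.8), against 35.8% (33.2 to 38.4) in comparison windows. The control-only share in poor windows had no steady order with distance, at 17.2% under 2 kb, 16.6% from 2 to 20 kb and 23.6% beyond.

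The difference was not limited to a few chromosomes. On the 18 autosomes with at least 50 knockout peaks in poor windows, the knockout-only share was higher in poor than in comparison windows on 18, and the control-only share likewise on 18. The knockout-only share in poor windows ran from 33.1% on chromosome 8 to 51.4% on chromosome 21. Chromosome 10 reached 51.1% (43.5 to 58.7), against 27.4% in its comparison windows. Chromosome 4, with the most knockout peaks in poor windows (818, beside 530 control peaks), had 45.5% knockout-only and 14.3% control-only, against 30.9% and 14.0% in its comparison windows. The control-only share in poor windows ran from 13.2% on chromosome 12 to 31.6% on chromosome 14, where it rested on 76 control peaks. On chromosome 2, with 567 control peaks in poor windows, it was 24.9% (21.4 to 28.6), against 20.5% in comparison windows.

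List-only peaks lay farther from the other list in poor windows than in comparison windows. The rule picked windows with few control peaks, and knockout peaks were sparse there too, so longer distances follow from the rule and are not a separate result. The median distance from a knockout-only peak to the nearest control peak was 16.4 kb in poor windows, against 2.54 kb in comparison windows. From a control-only peak to the nearest knockout peak it was 12.5 kb in poor windows and 2.23 kb in comparison windows. A control peak within 1000 bp was found for 10.8% of knockout-only peaks in poor windows (9.69 to 12.0), against 26.0% (25.2 to 26.8) in comparison windows.

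Peaks in poor windows were somewhat lower and shorter than in comparison windows. The median pileup over the floor was 6.78 for knockout peaks in poor windows (quartiles 5.65 and 9.04), against 7.46 in comparison windows (quartiles 5.88 and 9.95). For control peaks it was 7.53 in poor windows (quartiles 6.16 and 9.24), against 7.87 in comparison windows (quartiles 6.50 and 10.3). In fragments these medians were 30 against 33 in the knockout and 22 against 23 in the control. Poor windows thus had 0.909 times the comparison windows' median in the knockout and 0.957 times in the control, a small step beside the spread within each class. The median length was 400 bp for knockout peaks in poor windows (quartiles 335 and 499), against 433 bp in comparison windows (quartiles 354 and 568). In the control it was 393 bp in poor windows (quartiles 330 and 493), against 428 bp in comparison windows (quartiles 349 and 556). The authors' fold enrichment, the peak's pileup over its local background, had a median of 5.11 in poor windows against 5.35 in comparison windows in the knockout list, and of 5.12 against 5.35 in the control list.

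High and broad peaks were a smaller share of both lists in poor windows, apart from the very highest control peaks. A pileup of at least 15 times the floor was reached by 3.95% of knockout peaks in poor windows, against 6.28% in comparison windows, and by 4.70% of control peaks in poor windows, against 6.13%. The 99th percentile of pileup over the floor was 20.8 for knockout peaks in poor windows, against 22.2 in comparison windows. For control peaks it was higher in poor windows, at 26.6 against 21.2, and the 98th percentile was 19.2 against 18.5. Of the 236 control peaks of poor windows at 15 times the floor or more, 38 lay in 5 windows. The median control background of these windows exceeded 5 times the floor, and their part in the upper percentiles was not tested. Peaks of 2000 bp or more numbered 15 in the knockout (0.217%, 0.122 to 0.358) and 6 in the control (0.120%, 0.0439 to 0.260) in poor windows. Their shares were 0.482% and 0.328% in comparison windows. The local background sat at the floor for 50.2% of knockout peaks in poor windows, against 40.2% in comparison windows, and for 50.2% of control peaks in poor windows, against 43.4%.

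**Figure D3:**
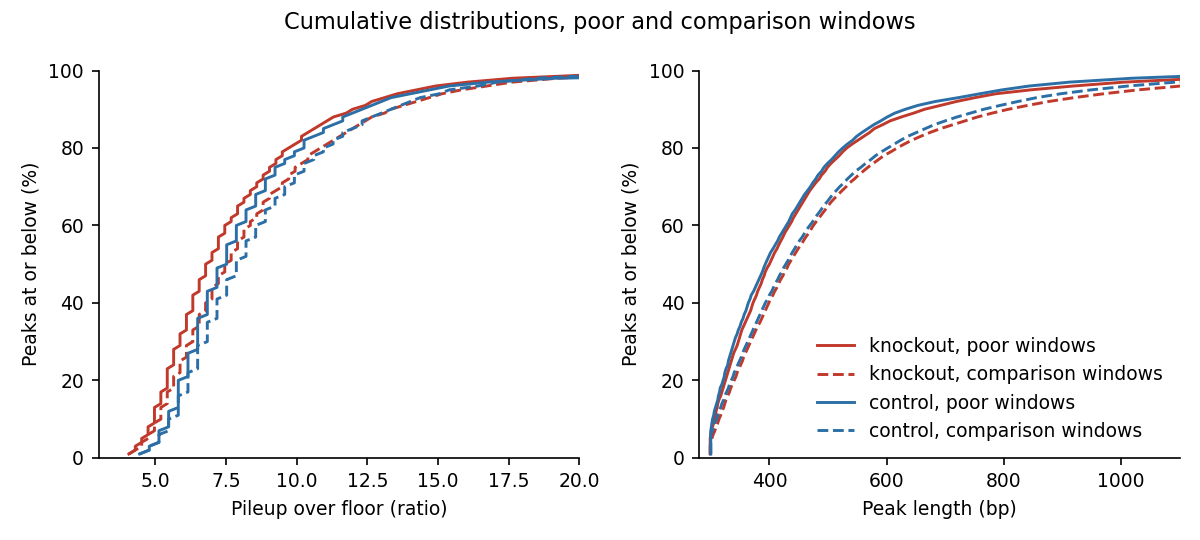
Cumulative distributions of pileup over the floor (left, ratio) and of peak length (right, bp) for knockout (red) and control (blue) peaks in poor windows (solid) and comparison windows (dashed). The vertical axis is the percentage of peaks at or below a value. Solid lines lie at or left of dashed lines, except for the top 2% of control pileups, which lie to the right, with median lengths of 400 against 433 bp in the knockout and 393 against 428 bp in the control.

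Low peaks were list-only more often than high ones in both classes of window, so the shares were also compared at matched pileup. Among peaks of 6 to 8 times the floor, 44.1% of knockout peaks in poor windows were knockout-only (42.1 to 46.2), against 33.4% (32.6 to 34.3) in comparison windows. At 8 to 10 times the floor the shares were 22.0% (19.6 to 24.4) and 12.6% (11.8 to 13.3), and at 10 to 15 times they were 8.74% (7.04 to 10.7) and 3.15% (2.77 to 3.57). The intervals of poor and comparison windows did not overlap in any of 6 pileup bins of the knockout list. With the poor windows' peaks weighted to the comparison windows' pileup bins, the knockout-only share was 37.1% (36.1 to 38.1) against 28.2%. The difference was then 8.92 percentage points in place of 13.5. Among peaks whose background was at the floor, where every peak met the same background, the weighted share was 41.2% (39.8 to 42.6) against 31.7%. The excess was not seen there in the highest bin. At 15 times the floor or more, 0 of 38 such peaks in poor windows were knockout-only (interval up to 9.25%), against 2 of 335 (0.597%) in comparison windows. Over all backgrounds that bin had 24 of 273 (8.79%) in poor windows, against 2.47%.

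For the control list the matched shares lay closer together. At 6 to 8 times the floor 22.5% of control peaks in poor windows were control-only (20.7 to 24.3), against 19.2% (18.5 to 19.9) in comparison windows. At 8 to 10 times the floor the shares were 7.17% (5.63 to 8.97) and 6.29% (5.75 to 6.87), with overlapping intervals. Weighted to the same pileup bins, the control-only share was 17.1% (16.2 to 18.1) in poor windows against 14.2%. The exception was the highest bin. At 15 times the floor or more, 45 of 236 control peaks in poor windows were control-only (19.1%, 14.3 to 24.7), against 3.18% (2.47 to 4.02) in comparison windows. Of these 45 peaks, 33 lay in 5 windows whose median control background exceeded 5 times the floor. In the other 422 poor windows 12 of 198 such peaks, 6.06%, were control-only.

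**Figure D4:**
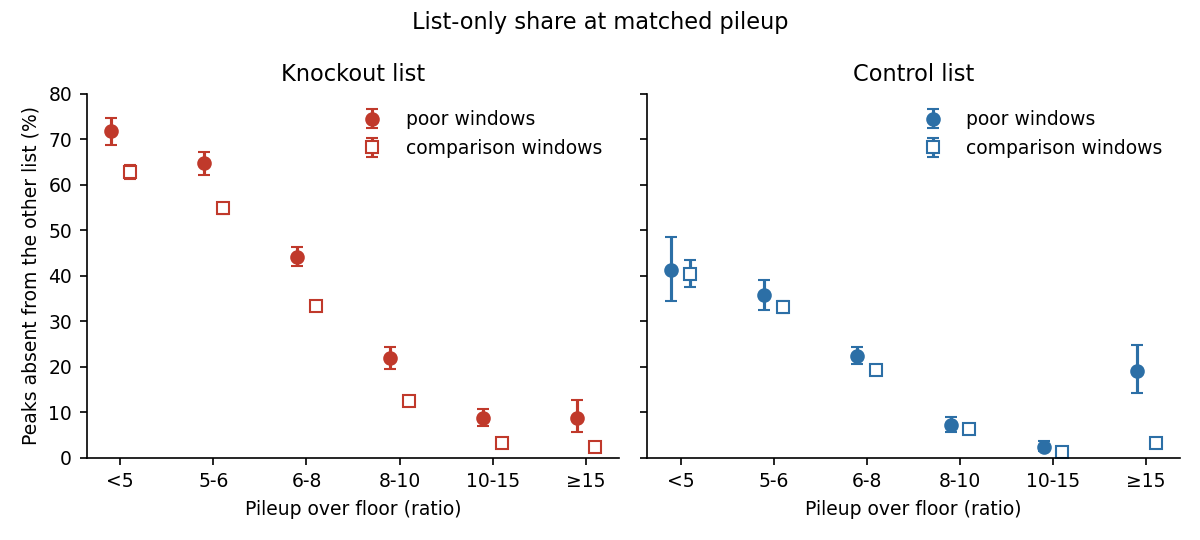
Share of peaks absent from the other list in percent (vertical axis) by pileup over the floor (horizontal axis), in poor windows (filled circles) and comparison windows (open squares), for the knockout list (left) and the control list (right). Bars are exact binomial 95% intervals. The poor windows lie above the comparison windows in every knockout bin, and in the control list the clearest gap is at 15 times the floor or more, 19.1% against 3.18%.

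The control list chose the windows, so the list-only shares are not independent of the rule. Windows were therefore also chosen in 3 other ways. With windows chosen by knockout peaks, the knockout-only share was 40.0% in poor windows against 29.1% in comparison windows, and the control-only share was 25.2% against 14.3%. The differences, 11.0 and 10.9 percentage points, were then about equal in the lists, whereas they were 13.5 and 4.88 when control peaks chose the windows. With windows chosen by merged regions of both lists the differences were 12.8 in the knockout list and 7.85 in the control list. The excess of the knockout-only over the control-only difference thus varied with the choice of list, and both differences were above 0 under each choice.

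Windows were finally chosen by their neighbours, among windows with at least 1 control peak of their own. This choice was made after the results were seen. In 83 windows both flanking windows held 5 to 20 control peaks, and these windows themselves held 1 to 87 control peaks with a median of 11. Of the 83, 37 were also poor by the first rule, so the 2 sets of windows overlap. There 848 of 2348 knockout peaks were knockout-only (36.1%, 34.2 to 38.1), against 25.2% in 82 windows flanked by comparison windows. The control-only share was 15.8% (14.2 to 17.6), against 13.9%. The difference was 10.9 percentage points in the knockout list, or 7.62 at matched pileup. In the control list it was 1.97, or 0.608 at matched pileup. The ratio of knockout to control peaks was 1.30 in the windows with poor neighbours and 1.14 in those with comparison neighbours.

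**Figure D5:**
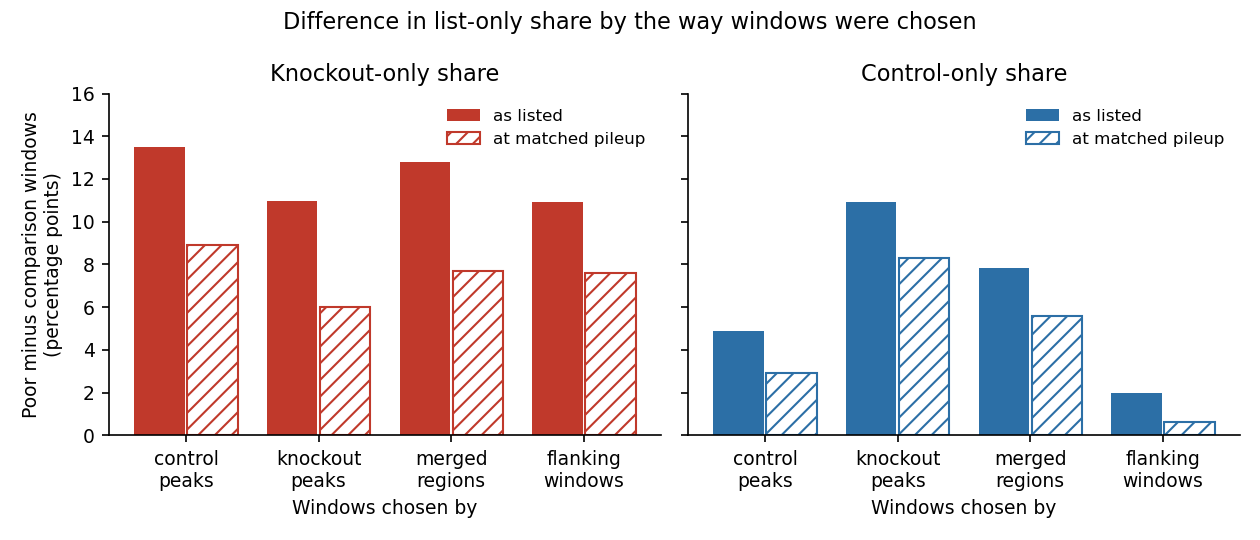
Difference in list-only share between poor and comparison windows in percentage points (vertical axis), for 4 ways of choosing the windows (horizontal axis), in the knockout list (left) and the control list (right). Filled bars are the shares as listed and hatched bars the shares weighted to the comparison windows' pileup bins. The knockout-only difference stays between 10.9 and 13.5 as listed, and the control-only difference runs from 1.97 to 10.9.

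The knockout library was deeper, so the lists were also compared after scaling. Knockout pileups and backgrounds were divided by 1.51, significance was recomputed, and as many of the best knockout peaks were kept as the control list holds. The knockout-only share in poor windows was then 37.1% (35.9 to 38.4), against 24.3% in comparison windows and 19.8% on all autosomes. The control-only share was 25.5% (24.3 to 26.7), against 20.2% and 17.7%. Keeping equal numbers of peaks without scaling gave 37.1% and 25.6% in poor windows, so scaling and list length cannot be told apart here. The ratio of knockout to control peaks was 1.17 in poor windows and 1.04 in comparison windows. After this scaling 419 of 2604 strong knockout peaks in poor windows were knockout-only (16.1%, 14.7 to 17.6), against 7.70% in comparison windows and 6.07% on all autosomes. Of the strong control peaks 277 of 2394 were control-only (11.6%, 10.3 to 12.9), against 6.68% in comparison windows and 5.24% on all autosomes. The difference between poor and comparison windows in the knockout list, 12.9 percentage points, was close to that of the lists as deposited.

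Where a region of a poor window was listed in both genotypes, its level differed little. A knockout and a control peak that overlapped each other and nothing else were paired, which gave 3929 pairs in poor windows. Their median pileup was 36 in the knockout and 23 in the control, which is 8.14 and 7.87 times the floor. On the log2 scale the median ratio of floor-scaled pileups (knockout over control) was 0.02 (0.01 to 0.04). Its quartiles were -0.22 and 0.28. In comparison windows it was 0.01 (0.01 to 0.02) over 27796 pairs, and over all autosomal pairs 0.04. Scaling by the floors removes any change common to the whole genome. The scatter was slightly wider in poor windows, with an SD of 0.38 against 0.35. Pairs over 2-fold higher in the knockout numbered 35 (0.891%, 0.621 to 1.24) in poor windows, against 0.414% in comparison windows and 0.447% on all autosomes. Pairs over 2-fold lower numbered 9 (0.229%, 0.105 to 0.434), against 0.198% in comparison windows and 0.138% on all autosomes. Control peaks chose the windows, so neither the median nor these counts are independent of the rule. With windows chosen by knockout peaks or by merged regions the median was -0.0129. The 2-fold counts are given for the first choice of windows only. Paired peaks were longer in the knockout, with a median length of 450 bp in the knockout and 415 bp in the control in poor windows. The same held in comparison windows (476 against 446 bp) and over all autosomal pairs (506 against 474 bp). Over all peaks of poor windows, paired or not, the median lengths were 400 bp in the knockout and 393 bp in the control. Lengths were not scaled for the knockout's greater depth, and the part of depth was not tested.

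The pair ratio differed between chromosomes. Window classes of 1 chromosome were hardly told apart. The comparison median lay inside the poor windows' interval on chromosomes 1, 3, 4 and 14, and just outside it on chromosome 2. In poor windows of chromosome 3 the median was 0.10 (0.01 to 0.16) over 328 pairs, and in its comparison windows 0.05. It was -0.06 (-0.11 to -0.01) over 300 pairs on chromosome 1, with -0.08 in the comparison windows there. On chromosome 2 it was -0.04 (-0.09 to 0.03) over 410 pairs, with -0.10 in comparison windows. On chromosome 4 the poor windows had 0.02 (-0.01 to 0.07) over 433 pairs and the comparison windows 0.04. Chromosome 14 had -0.01 (-0.10 to 0.11) over 52 pairs in poor windows and 0.07 in comparison windows.

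The longest stretches of poor windows differed in how the lists compared. The longest, 5 windows at 81 to 86 Mb of chromosome 7, held 75 knockout and 59 control peaks, of which 30 and 13 were list-only. Its median pair ratio was -0.04 over 44 pairs. The stretch at 29 to 33 Mb of chromosome 4 held 92 knockout peaks and 35 control peaks, a ratio of 2.63. There 58 of the 92 knockout peaks were knockout-only (63.0%), 1 control peak was control-only, and the median log2 ratio of 34 pairs was 0.20. The median background was at the floor in both lists in this stretch. At 78 to 82 Mb of chromosome 2 the lists were about equally long, with 25 knockout and 26 control peaks. Only 14 pairs were found there, with a median log2 ratio of -0.19, and 11 knockout and 12 control peaks were list-only. The stretches at 123 to 127 Mb of chromosome 2 and at 161 to 165 Mb of chromosome 3 held 67 and 39 knockout peaks, against 43 and 30 control peaks. Their pair medians were 0.16 and 0.22. A further 3 stretches of 4 windows lay on chromosomes 4, 6 and 13. They were named although the rule called for 5, because they tied in length. At 114 to 118 Mb of chromosome 4 there were 67 knockout and 53 control peaks. At 87 to 91 Mb of chromosome 6 there were 52 and 33, and at 83 to 87 Mb of chromosome 13 there were 83 and 45.

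The 5 single windows with most knockout peaks held 2.0 to 2.5 times as many knockout as control peaks. These ratios were below the 2.63 of the chromosome 4 stretch. The poor window with most knockout peaks was at 91 to 92 Mb of chromosome 12, with 46 knockout and 19 control peaks, of which 28 were knockout-only and 1 control-only. Next came 2 windows of chromosome 7, at 17 to 18 Mb and at 109 to 110 Mb, each with 44 knockout and 20 control peaks. A window at 7 to 8 Mb of chromosome 3 had 40 knockout and 16 control peaks. Another, at 27 to 28 Mb of chromosome 15, had 40 knockout and 20 control peaks. Median pileups over the floor in these 5 windows were between 6.56 and 8.70 in the knockout and between 7.53 and 8.55 in the control. The median pair ratios were 0.22, 0.13, 0.34, 0.36 and 0.07 in the order named.

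The windows with fewest knockout peaks per control peak were mostly of another kind. Chromosome 11 at 51 to 52 Mb held 0 knockout and 7 control peaks, and chromosome 19 at 27 to 28 Mb held 1 and 6. Their median control backgrounds were 17.8 and 32.2 times the floor, and both lay beside a window without peaks. Chromosome 5 at 9 to 10 Mb held 2 knockout and 9 control peaks, of which 8 were control-only, with a median control background of 1.00 times the floor. In all, 5 poor windows had a median control background over 5 times the floor, with 13 knockout and 45 control peaks, and 37 of the 45 were control-only. Without these windows the control-only share in poor windows was 18.6% (17.5 to 19.7) and the knockout-only share 41.7% (40.5 to 42.9). The part of high background in the calls of these windows was not tested.

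The highest peaks shared by the lists in poor windows had backgrounds of over 3 times the floor. At chr8:46850677-46850994 the pileup was 294 in the knockout and 277 in the control, or 66.5 and 94.8 times the floor, over backgrounds of 40.0 and 35.8 times the floor. The next, at chr8:46844991-46845371, had pileups of 261 and 244. At chr21:11168345-11169340 the pileup was 276 in the knockout and 113 in the control, 62.4 and 38.7 times the floor, with backgrounds of 5.35 and 6.59 times the floor. The pairs at chr19:27737634-27737959 and chr1:142796369-142797119 followed, with 145 and 156 fragments in the knockout and 148 and 126 in the control. Shared peaks with a background of at most 2 times the floor in both lists, a limit set after the values were seen, were lower. The highest was chr1:166958046-166959329, with pileups of 122 in the knockout and 74 in the control, 27.6 and 25.3 times the floor. At chr12:71957617-71958623 the pileups were 98 and 77, over a background at the floor in both lists, and the authors' fold was 18.3 in the knockout and 19.9 in the control. At chr10:106029594-106030287 they were 112 and 67, with folds of 19.8 and 16.9. These 3 regions were at over 20 times the floor in both genotypes, inside sparse megabases.

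Some regions of poor windows were high in the knockout and absent from the control list. No control peak lay within 1000 bp of 2570 knockout-only peaks in poor windows (37.2% of the knockout peaks there), against 20.9% in comparison windows and 15.1% over all autosomal knockout peaks. This share also depends on the sparse control peaks by which the windows were chosen. The most significant was chr4:116599428-116600254, with a pileup of 86 (68.8 to 106), 19.4 times the floor, and a fold of 13.7, in a window with 10 control peaks. At chr7:85911412-85912111 the pileup was 108 (88.6 to 130) over a background of 3.19 times the floor. Chromosome 5 held the next 2, at chr5:88299314-88300259 with a pileup of 83 and at chr5:85865165-85865790 with 91. The fifth, chr21:11106541-11107043, had a pileup of 120 over a background of 5.11 times the floor. All 5 were over 18 times the knockout floor. Backgrounds above the floor raise the pileup that a peak needs to be listed, and the control's level at these places was not analysed here.

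Control-only regions of poor windows with no knockout peak within 1000 bp numbered 824, or 16.4% of the control peaks there, against 10.2% in comparison windows and 7.22% over all autosomal control peaks. The most significant lay at high background. At chr7:61966997-61968320 and chr7:61968541-61969838 the pileups were 252 and 597, over backgrounds of 30.6 and 76.2 times the floor, and the folds were 2.80 and 2.67. The other members of the leading 5 were chr19:27731810-27733503, chr19:27733662-27734823 and chr20:29829209-29829605, with backgrounds between 27.0 and 57.9 times the floor. Among those with a background of at most 2 times the floor the most significant was chr7:84082402-84083009, with a pileup of 36 (25.2 to 49.8), 12.3 times the floor, and a fold of 8.62. It was followed by chr12:67734821-67735310 with 33 fragments and chr1:75197158-75197588 with 31. Under the same limit the leading knockout-only peaks had 86, 83, 64, 51 and 65 fragments, or 11.5 to 19.4 times the floor.

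Among pairs with at least 5 times the floor in both lists, the largest ratio was at chr1:49364421-49365054. It had a pileup of 90 in the knockout and 21 in the control, 20.3 and 7.18 times the floor, for a log2 ratio of 1.50. The next were chr21:48081137-48081871, with 75 and 18 fragments and a log2 ratio of 1.46, and chr4:29118850-29119466, with 78 and 19 and a log2 ratio of 1.44. The last of these lies in the chromosome 4 stretch with 92 knockout peaks. In each of the 3 the knockout peak was the longer, at 634, 735 and 617 bp against 355, 450 and 417 bp in the control. The smallest ratios were -1.18 at chr5:8432613-8432924, with 24 fragments in the knockout and 36 in the control, -0.98 at chr20:38808956-38809432, with 30 and 39, and -0.95 at chr4:52775393-52775721, with 25 and 32.

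The longest peaks of poor windows were 3470 bp at chr3:147108420-147111889, 3272 bp at chr15:27136885-27140156 and 3159 bp at chr10:26995931-26999089 in the knockout list. Their pileups were 109, 103 and 55, between 12.4 and 24.6 times the floor, and each overlapped a control peak. In the control list they were 6250 bp at chr1:142535298-142541547, 5554 bp at chr1:152185887-152191440 and 2671 bp at chr2:91737583-91740253. Their backgrounds were 12.4, 6.22 and 3.93 times the floor, while those of the 3 knockout peaks were between 1.00 and 1.91.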

How the data were processed

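Peak lists of 1 knockout and 1 control MeDIP-seq library of C42B cells were used. Per the submitters' processing notes, BWA aligned the reads to hg19, FastQC checked them and MACS2 found the peaks. Their versions and settings are not given in the sources used here. Each deposited list gives positions counted from 1 and a pileup signal, the whole number of fragments over the summit, unscaled between libraries. It also gives the authors' fold (a ratio of pileup to local background, 1 being added to each) and, as deposited by the authors, −log10 values of p and q. Lists were matched to samples by genotype and antibody in their names. Total reads were not used, so the floor stood for depth.

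The local background was worked out from pileup and fold, and the floor is its lowest value in a list. A background within 0.1% of the floor counts as at the floor. A Poisson upper tail with this background matched the listed −log10 p to within 0.000329 in the knockout and 0.000573 in the control. List-only peaks and pairs rest on overlaps of at least 1 bp. Shares have exact Clopper-Pearson intervals, medians have order-statistic intervals, and differences and weighted shares have normal-approximation intervals, at the 95% level and for counting error only. With 1 library in each group nothing was tested. Overlaps, pairing and list-only shares by window class were tested on simulated lists with known answers. Depth scaling, weighting over 6 pileup bins, the intervals and the choices by merged regions and flanking windows were not tested in this way.

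The windows and measures were chosen with earlier results of these data known. Named regions followed set orders (longest stretches, most and fewest knockout peaks, highest pileup, −log10 q, ratio or length). The limit of 2 times the floor on a peak's background, the choice by flanking windows and the tied stretches were added after values were seen. Other chromosomes, with 6074 knockout and 4809 control peaks, were left out by the rule. Python 3.11.15, NumPy 2.4.6, pandas 2.3.3 and SciPy 1.17.1 were used. Alternatives covered the overlap rule, peak strength, list length, depth and the choice of windows. Genes, CpG content and sequences were not analysed here.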

Additional observations from a re-analysis of the deposited data

How the results depend on the processing

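Of 117 alternative values for 9 results, 64 moved by less than their 95% interval, 50 moved by more, and 3 changed sign. Some of the 64 could not move, so their number does not measure stability. Another overlap rule leaves median pileups and lengths of the lists as they are. Scaling or shortening the knockout list leaves those of the control list unchanged. The 3 were all the median log2 pair ratio in poor windows, which was 0.02 as reported. It was -0.0296 for peaks with −log10 q of at least 10, -0.0129 with windows chosen by knockout peaks and -0.0129 with windows chosen by merged regions, and the cause was not tested. The poor windows exceeded the comparison windows in list-only share in both lists under each of the 13 alternatives.

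Values that moved follow, as knockout-only and control-only shares in poor windows and then their differences from comparison windows in percentage points. A 50% reciprocal overlap gave 45.2% and 24.5%, with differences of 12.1 and 3.48. A distance of over 1000 bp to the other list's nearest peak gave 37.2% and 16.4%, with 16.3 and 6.22. A −log10 q of at least 10 gave 30.3% and 8.19%, with 11.7 and 3.71, and median pileups over the floor of 8.14 and 9.24 and lengths of 438 and 460 bp in the knockout and control lists. A fold of at least 5 gave 45.3% and 30.9%, pileups of 8.36 and 8.55, and lengths of 452 and 439 bp. Scaling the knockout to the control depth gave 37.1% and 25.5%, with a knockout pileup of 7.23, a length of 414 bp and a pair ratio of 0.0512. Equal numbers of peaks gave 37.1% and 25.6%, with 7.23, 415 bp and 0.0542. Borders moved by 0.5 Mb gave a knockout-only difference of 15.04.

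Windows chosen by knockout peaks gave 40.0% and 25.2%, with differences of 11.0 and 10.9 and a knockout length of 391 bp. Merged regions gave a control-only share of 22.2%, a difference of 7.85, and lengths of 389 and 384 bp. Of 2 alternatives chosen after seeing the data, flanking windows gave 36.1% and 15.8%, with 10.9 and 1.97, lengths of 414 and 406 bp and a pair ratio of 0.0485, and a background of at most 2 times the floor gave a knockout length of 395 bp. No paired analysis was possible because there was a single library per genotype and antibody. Total read numbers were not used, so whether the lists were called at like power was judged from the floors alone.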
